A study of Mus musculus with 20 samples.

Results

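The levels of 10 genes of cytokine receptor, STAT and NF-kB signalling were followed in the mouse hippocampus across age and housing. The genes were Il4ra, Il6st, Tnfrsf1a, Tnfrsf25, Stat3, Stat6, Socs3, Nfkbia, Bcl3 and Relb, matched by Ensembl identifier to GRCm38 symbols, out of 47729 gene identifiers in the count table. They were chosen by name with results of these data in view, above all the difference between old and young mice in standard cages and that between enriched and standard cages at old age. Values of single genes in those 2 comparisons are therefore a description and are given without a p, and nothing is read from counts of calls in them. The comparison of cages at young age and that of ages under enrichment each share a group with them. Their p values and counts are therefore not free of the choice either. All 10 genes passed the filter on low counts in the fit of all 20 libraries, which left 16692 genes for testing.

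Gene expression was measured by RNA-seq in hippocampi of male C57BL/6 mice. The 4 groups, of 5 libraries each, were mice of 5 months in standard cages (5mSC), mice of 5 months in an enriched environment (5mEE), mice of 24 months in standard cages (24mSC) and mice of 24 months in an enriched environment (24mEE). No group carried a transgene, a deletion or a drug according to the labels, and RNA was isolated separately from each sample. Enrichment of the old mice covered their last 2 months, in cages with running wheels, tubes and climbing platforms, and the study's methods do not describe the young enriched mice.

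Library totals lay between 11 and 34.1 M counts (M, mega), so that a gene with 3 counts in a library reached 0.0882 to 0.329 CPM (counts per M counts of a library, on the TMM scale; the level used throughout). All 7 markers of hippocampal neurons exceeded 1 CPM in each group. 5mSC replicate 3 stood apart from the other 19 libraries, with 26.8% of its counts in mitochondrial ribosomal RNA, against 0.883 to 1.82% elsewhere. The summed level of its 6 markers of choroid plexus and ependyma was 371.7 CPM, whereas the remaining 5mSC libraries reached 31.3 to 57.6 CPM. 5mSC replicate 1 stood apart to a lesser degree in earlier results of these data, so some of the values that rest on 5mSC are also given without replicates 1 and 3. Replicate 1 lay within the ranges above in mitochondrial ribosomal RNA (1.44%) and in choroid plexus and ependyma markers (43.1 CPM). Its 6 astrocyte markers summed to 3258 CPM, against 4644 to 5230 CPM in 5mSC replicates 2, 4 and 5. Replicate numbers follow the order of deposition and pair no samples. The labels name no batch or sequencing run, whereas the study's methods state that mice were kept in 2 runs. Which run each library came from is not known here, so a difference between runs cannot be told apart from one between groups.

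Cytokines bind receptors at the cell surface and switch on transcription factors that wait in the cytoplasm. Receptors of the IL-4 and IL-6 kind activate JAK kinases, which phosphorylate STAT proteins. Receptors of the TNF family act through adaptors and the IKK kinases, which free NF-kB dimers from inhibitors of the IkB family. Both routes induce their own inhibitors, Socs3 for STAT3 and Nfkbia for NF-kB, which ends the signal. In the brain these pathways are known for the responses of microglia and astrocytes to injury, infection and ageing.

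The promoters of 5 of the genes are shown because their windows hold the letters that STAT and NF-kB dimers recognise. RefSeq windows of GRCm38.p6, from 250 bases before to 50 bases after a transcription start, were found for 9 of the 10 genes. There were 10 windows, since Tnfrsf25 has 2, and none was found for Relb. Capitals mark matches to TTCNNNGAA, the GAS element of STAT dimers, or to the kB motif of NF-kB, both searched on both strands. The kB match in the Bcl3 window lies just after the first base of the transcript. The Socs3 window is on the minus strand of chr11:117969317-117969616, the Nfkbia window on the minus strand of chr12:55492598-55492897 and the Bcl3 window on the minus strand of chr7:19822706-19823005. The Il4ra window is on the plus strand of chr7:125552021-125552320 and the second Tnfrsf25 window on the plus strand of chr4:152116093-152116392.
Socs3: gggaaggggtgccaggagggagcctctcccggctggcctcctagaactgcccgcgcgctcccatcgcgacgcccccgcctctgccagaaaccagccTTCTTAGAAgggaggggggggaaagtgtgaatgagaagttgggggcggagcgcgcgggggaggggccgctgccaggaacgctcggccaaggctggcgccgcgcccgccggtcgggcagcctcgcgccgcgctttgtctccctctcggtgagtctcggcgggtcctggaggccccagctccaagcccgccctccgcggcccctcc
Nfkbia: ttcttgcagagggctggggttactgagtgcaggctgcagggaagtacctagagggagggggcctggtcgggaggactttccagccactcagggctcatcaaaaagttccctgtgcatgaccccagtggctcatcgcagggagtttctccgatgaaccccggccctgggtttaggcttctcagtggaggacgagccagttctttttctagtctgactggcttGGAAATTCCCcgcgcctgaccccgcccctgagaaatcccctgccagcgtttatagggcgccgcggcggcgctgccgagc
Bcl3: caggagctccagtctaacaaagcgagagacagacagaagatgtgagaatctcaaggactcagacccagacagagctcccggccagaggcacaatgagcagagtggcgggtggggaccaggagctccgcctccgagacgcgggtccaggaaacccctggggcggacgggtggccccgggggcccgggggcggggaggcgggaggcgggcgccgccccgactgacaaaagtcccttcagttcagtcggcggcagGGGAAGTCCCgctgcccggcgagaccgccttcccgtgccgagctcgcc
Il4ra: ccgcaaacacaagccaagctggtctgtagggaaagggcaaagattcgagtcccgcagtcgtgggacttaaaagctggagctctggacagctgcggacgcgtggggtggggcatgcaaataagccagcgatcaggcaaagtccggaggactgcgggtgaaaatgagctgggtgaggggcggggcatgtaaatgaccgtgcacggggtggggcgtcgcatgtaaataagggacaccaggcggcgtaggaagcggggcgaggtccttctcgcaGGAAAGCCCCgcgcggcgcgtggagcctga
Tnfrsf25: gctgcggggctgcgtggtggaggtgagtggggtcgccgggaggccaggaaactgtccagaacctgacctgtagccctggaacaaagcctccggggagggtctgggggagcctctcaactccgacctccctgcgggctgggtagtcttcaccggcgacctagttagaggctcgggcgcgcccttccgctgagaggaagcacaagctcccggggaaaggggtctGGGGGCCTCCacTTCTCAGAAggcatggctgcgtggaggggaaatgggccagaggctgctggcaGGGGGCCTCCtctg

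In Socs3 the GAS match takes bases 97 to 105 of the window. In Nfkbia the kB match takes bases 222 to 231, in Bcl3 bases 253 to 262 and in Il4ra bases 271 to 280. The second Tnfrsf25 window holds a GAS match at bases 235 to 243 between kB matches at bases 223 to 232 and 287 to 296. A further GAS match lies in the Tnfrsf1a window at bases 7 to 15. The windows of Il6st, Stat3 and Stat6 held no match to either motif, and neither did the first Tnfrsf25 window, on the plus strand of chr4:152115684-152115983. A GAS match was found in 3 of the 10 windows and in 8.3% of all 32851 mouse windows of this length, and a kB match in 4 of the 10 and in 8.46% of all. The spacing preferred by STAT6, TTCNNNNGAA, occurred in 6.95% of all windows and in 0 of the 10. A match of letters is a description of the sequence and was not tied to binding in these data.

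Levels were compared between the genes per kb of exon. Nfkbia, the inhibitor IkB-alpha, had the highest mean over the 20 libraries of all groups, at 11 CPM per kb. It was followed by Tnfrsf25 at 7.66, Il6st at 7.12, Stat3 at 5.79, Tnfrsf1a at 3.6, Stat6 at 2.75 and Relb at 2.12 CPM per kb. Il4ra, Socs3 and Bcl3 were the lowest, at 0.794, 0.663 and 0.277 CPM per kb. The ranges over libraries of Nfkbia (7.70 to 15.2) and Il6st (3.56 to 8.13) overlapped, that of Tnfrsf25 (2.86 to 20.3) overlapped both and that of Stat3 (4.00 to 6.91), and Il6st and Stat3 overlapped too, as did those of Il4ra (0.5 to 1.14) and Socs3 (0.365 to 1.20). The order changed between groups, since Tnfrsf25 came first in 5mSC, at 12.7 CPM per kb against 12.1 for Nfkbia, and lay below Il6st and Stat3 in 24mSC, at 4.20 CPM per kb. Counts behind the low genes were 36 to 164 per library for Il4ra, 25 to 85 for Socs3 and 4 to 51 for Bcl3, and counting error limits Bcl3 most. Because whole tissue was sequenced, fewer cells of a type and less RNA per cell cannot be told apart for any of these genes.

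**Figure D1:**
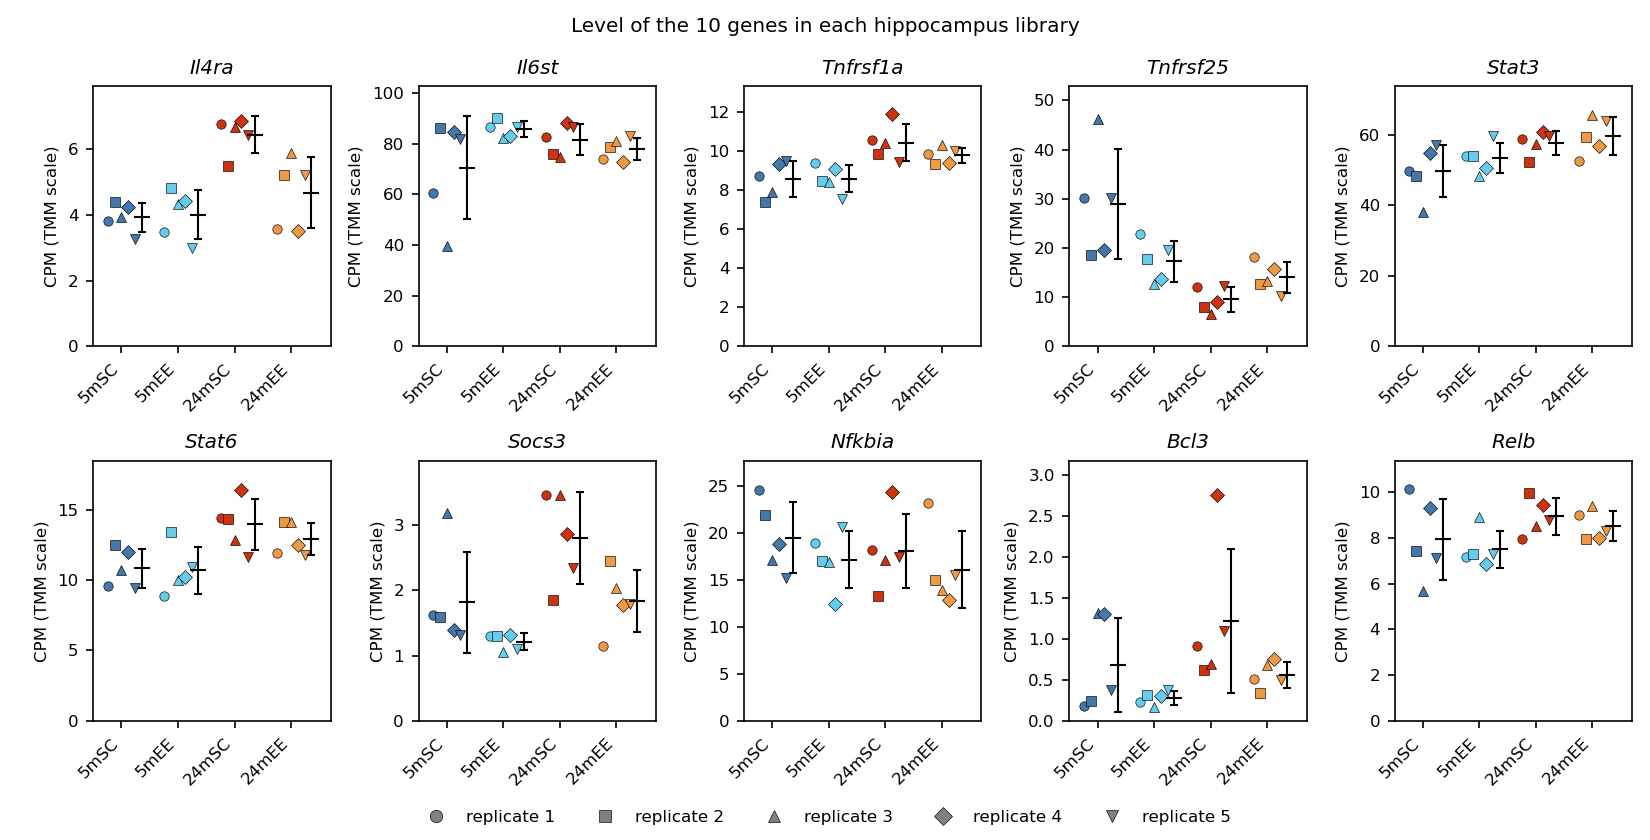
Level of the 10 genes in CPM on the TMM scale (y axis, from 0) by group (x axis), with 1 point per library, the marker shape giving the replicate number, and the black dash and bar the mean and SD of 5 libraries. The Il4ra libraries of 24mSC (5.48 to 6.86 CPM) lie above all 5mSC libraries (3.25 to 4.39 CPM), and the Tnfrsf25 libraries of 24mSC (6.51 to 12.3 CPM) below them (18.5 to 46.1 CPM).

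Il4ra, the signalling chain of the IL-4 and IL-13 receptors, had its highest levels in old mice of standard cages. It is a gene of 12 exons (merged over transcripts) on the plus strand of chr7:125552120-125579474. The 24mSC libraries reached 6.78, 5.48, 6.67, 6.86 and 6.42 CPM (mean 6.44 ± 0.564, SD, n = 5). The 5mSC libraries were at 3.82, 4.39, 3.94, 4.24 and 3.25 CPM (3.93 ± 0.440, SD, n = 5), so that the 2 groups did not overlap. The difference was 0.72 ± 0.160 (log2 fold change ± SE), and 0.71 ± 0.180 without 5mSC replicates 1 and 3. Of its exonic bases 9.51% overlap Gm44876 on the opposite strand, and since the kit did not mark the strand, reads of this stretch cannot be assigned.

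In old enriched mice Il4ra was spread over a wider range than in the other groups. The 24mEE libraries were at 3.58, 5.20, 5.89, 3.5 and 5.22 CPM (4.68 ± 1.08, SD, n = 5). All 5 lay below the 24mSC mean, and 1 of them (replicate 3) above the lowest 24mSC library, so that the groups overlapped. The difference of 24mEE from 24mSC was -0.46 ± 0.157 (log2 fold change ± SE). The 5mEE libraries were at 3.47, 4.81, 4.34, 4.43 and 3.0 CPM (4.01 ± 0.748, SD, n = 5), of which 2 lay above and 1 below the range of 5mSC. The difference of 0.03 ± 0.161 (adjusted p = 0.949, edgeR) was smaller than its error. The order of the 4 means was 24mSC, 24mEE, 5mEE and 5mSC. The neighbours 24mEE and 5mEE overlapped too, with a difference of 0.23 ± 0.159 (log2 fold change ± SE, adjusted p = 0.9997, edgeR).

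Tnfrsf25, death receptor 3 of the TNF family and known for costimulation of T cells, followed another order. It is a gene of 9 exons on the plus strand of chr4:152115934-152120119, and no exonic stretch of it overlaps another gene. The 5mSC libraries reached 30.1, 18.5, 46.1, 19.5 and 30.2 CPM (28.9 ± 11.1, SD, n = 5). The 24mSC libraries were at 12, 8.01, 6.51, 8.96 and 12.3 CPM (9.57 ± 2.54, SD, n = 5), each below the lowest 5mSC library. The difference was -1.58 ± 0.239 (log2 fold change ± SE), about 0.334 of the young level. Without 5mSC replicates 1 and 3, of which replicate 3 had the highest level of all libraries, it was -1.27 ± 0.225.

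The enriched groups lay between these levels of Tnfrsf25. The 24mEE libraries were at 18.2, 12.6, 13.2, 15.8 and 10.2 CPM (14.0 ± 3.08, SD, n = 5), all above the 24mSC mean, with an overlap in replicate 5. The difference of 24mEE from 24mSC was 0.55 ± 0.239 (log2 fold change ± SE). The 5mEE libraries were at 22.9, 17.7, 12.6, 13.8 and 19.5 CPM (17.3 ± 4.19, SD, n = 5), all below the 5mSC mean. The difference of 5mEE from 5mSC was -0.72 ± 0.230 (log2 fold change ± SE, adjusted p = 0.223, edgeR), and -0.40 ± 0.217 without 5mSC replicates 1 and 3. The old enriched mice differed from the young enriched mice by -0.31 ± 0.231 (log2 fold change ± SE, adjusted p = 0.9997, edgeR), with 1 of 5 old libraries above the young mean. The mean of the enriched libraries was above that of the standard-cage group at 24 months and below it at 5 months.

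Tnfrsf1a, the main receptor of TNF, showed small differences. Its libraries ranged from 7.37 to 9.48 CPM in 5mSC (8.56 ± 0.913, SD, n = 5), from 7.56 to 9.38 CPM in 5mEE (8.57 ± 0.704), from 9.44 to 11.9 CPM in 24mSC (10.4 ± 0.930) and from 9.33 to 10.3 CPM in 24mEE (9.76 ± 0.403). All 5 libraries of each old group lay above the mean of the young group in the same cage, and the groups overlapped at their edges. The log2 fold change from young to old was 0.27 ± 0.0899 (SE) in standard cages and 0.19 ± 0.0889 (SE, adjusted p = 0.9997, edgeR) under enrichment. Between cages the means differed by less than the SD of the standard-cage group at both ages.

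Il6st, the chain gp130 shared by receptors of the IL-6 family, was spread mostly by the libraries that stand apart. The 5mSC libraries were at 60.5, 86.4, 39.6, 84.9 and 82.0 CPM (70.6 ± 20.3, SD, n = 5), where replicates 1 and 3 gave the low values. The other groups were narrow, at 82.3 to 90.2 CPM in 5mEE (85.7 ± 3.18), 74.6 to 88.1 CPM in 24mSC (81.6 ± 6.14) and 72.8 to 83.1 CPM in 24mEE (78.0 ± 4.45). The log2 fold change of 24mSC from 5mSC was 0.20 ± 0.138 (SE) and turned to -0.05 ± 0.0600 without those 2 libraries. That of 5mEE from 5mSC was 0.27 ± 0.138 (SE, adjusted p = 0.323, edgeR) and 0.02 ± 0.0599 without them.

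Stat3, the transcription factor downstream of gp130, was narrowly spread outside 5mSC. Its libraries were at 38.1 to 57.2 CPM in 5mSC (49.7 ± 7.41, SD, n = 5), with the lowest value in replicate 3, and at 48.4 to 59.7 CPM in 5mEE (53.4 ± 4.26). In old mice they were at 52.2 to 60.8 CPM in 24mSC (57.8 ± 3.37) and 52.5 to 65.8 CPM in 24mEE (59.8 ± 5.38). All 4 ranges overlapped. The log2 fold change from young to old was 0.21 ± 0.0917 (SE) in standard cages, 0.10 ± 0.0799 without 5mSC replicates 1 and 3, and 0.16 ± 0.0911 (adjusted p = 0.9997, edgeR) under enrichment.

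Stat6, which carries the IL-4 and IL-13 signal from Il4ra to the nucleus, was higher in old than in young means in both cages. The 24mSC libraries were at 14.4, 14.4, 12.9, 16.4 and 11.7 CPM (13.9 ± 1.8, SD, n = 5), and the 5mSC libraries at 9.57, 12.5, 10.7, 12 and 9.42 CPM (10.8 ± 1.38). The log2 fold change was 0.36 ± 0.117 (SE), with an overlap of the lowest 24mSC library with 2 of 5mSC. Under enrichment the libraries reached 11.8 to 14.1 CPM at 24 months (12.9 ± 1.15) and 8.85 to 13.4 CPM at 5 months (10.7 ± 1.70). This difference was 0.27 ± 0.115 (log2 fold change ± SE, adjusted p = 0.924, edgeR). Between cages Stat6 differed by less than the SD of either group at both ages.

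Socs3, the feedback inhibitor of STAT3 signalling, was low in all groups and highest in 24mSC. It is a gene on the minus strand of chr11:117966079-117970047 without exonic overlap. The 24mSC libraries were at 3.47, 1.86, 3.46, 2.86 and 2.35 CPM (2.80 ± 0.702, SD, n = 5). The 5mSC libraries were at 1.62, 1.58, 3.18, 1.39 and 1.31 CPM (1.82 ± 0.771). The overlap came from 5mSC replicate 3, since the other 4 lay below every 24mSC library. The difference was 0.68 ± 0.245 (log2 fold change ± SE), and 0.98 ± 0.224 without 5mSC replicates 1 and 3.

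Socs3 was lower in enriched than in standard cages at both ages in the means. The 24mEE libraries were at 1.14, 2.45, 2.04, 1.77 and 1.79 CPM (1.84 ± 0.475, SD, n = 5), all below the 24mSC mean, and differed by -0.61 ± 0.241 (log2 fold change ± SE) from 24mSC. The 5mEE libraries were at 1.29, 1.30, 1.05, 1.32 and 1.11 CPM (1.22 ± 0.126), the narrowest range of the 4 groups. Their difference from 5mSC was -0.52 ± 0.251 (log2 fold change ± SE, adjusted p = 0.306, edgeR), -0.28 without 5mSC replicate 3 and -0.22 ± 0.232 without replicates 1 and 3. Under enrichment the old mice exceeded the young by 0.59 ± 0.247 (log2 fold change ± SE, adjusted p = 0.906, edgeR), with 4 of 5 old libraries above the young mean.

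Nfkbia, the inhibitor that NF-kB induces against itself, did not separate any groups. Its libraries were at 15.2 to 24.5 CPM in 5mSC (19.5 ± 3.73, SD, n = 5), 12.4 to 20.6 CPM in 5mEE (17.2 ± 3.06), 13.3 to 24.4 CPM in 24mSC (18.1 ± 3.97) and 12.8 to 23.2 CPM in 24mEE (16.1 ± 4.08). The 4 means differed from each other by less than the SD of 5mSC. The log2 fold changes were between -0.18 and -0.09 in the 4 comparisons, each about as large as its SE of 0.174 to 0.175 or smaller. That of 24mSC from 5mSC was -0.04 ± 0.192 and that of 5mEE from 5mSC -0.11 ± 0.190 without 5mSC replicates 1 and 3.

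Bcl3, an atypical IkB protein that acts in the nucleus with NF-kB dimers, was the lowest and the most variable of the genes. It lies on the minus strand of chr7:19808462-19822770, and 6.51% of its exonic bases overlap Gm16175 on the opposite strand. The 24mSC libraries were at 0.918, 0.620, 0.692, 2.75 and 1.1 CPM (1.22 ± 0.880, SD, n = 5), and the 24mEE libraries at 0.517, 0.344, 0.680, 0.753 and 0.504 CPM (0.560 ± 0.161). The difference of 24mEE from 24mSC was -1.11 ± 0.484 (log2 fold change ± SE), with overlap of the groups, and -0.57 without 24mSC replicate 4. The 5mSC libraries fell into high and low values, at 0.180, 0.244, 1.31, 1.30 and 0.376 CPM (0.684 ± 0.576), and the 5mEE libraries were at 0.235, 0.315, 0.169, 0.298 and 0.379 CPM (0.279 ± 0.0804).

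The Bcl3 differences at 5 months and with age in standard cages changed in size with single libraries. The log2 fold change of 5mEE from 5mSC was -1.20 ± 0.533 (SE, adjusted p = 0.275, edgeR), and -0.66 without 5mSC replicate 4. That of 24mSC from 5mSC was 0.88 ± 0.485 (SE), 0.34 without 24mSC replicate 4 and 1.42 without 5mSC replicate 4. Without 5mSC replicates 1 and 3 these 2 log2 fold changes were -1.30 ± 0.541 and 0.77 ± 0.467 (SE). Under enrichment, where the values were closest together, the old mice were at 0.98 ± 0.533 (log2 fold change ± SE, adjusted p = 0.9997, edgeR) relative to the young. All 5 old enriched libraries lay above the young enriched mean. Bcl3 passed the filter on low counts over all groups together. It fell below it in fits of only the 2 groups compared for 5mEE against 5mSC and for 24mEE against 5mEE.

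Relb, the NF-kB subunit of the non-canonical pathway, was at 5.70 to 10.1 CPM in 5mSC (7.93 ± 1.77, SD, n = 5), 6.86 to 8.90 CPM in 5mEE (7.50 ± 0.800), 7.95 to 9.97 CPM in 24mSC (8.93 ± 0.793) and 7.96 to 9.38 CPM in 24mEE (8.52 ± 0.643). All 5 libraries of each old group lay above the mean of the young group in the same cage. The log2 fold change with age was 0.15 ± 0.124 (SE) in standard cages and 0.19 ± 0.123 (SE, adjusted p = 0.9997, edgeR) under enrichment. Between cages its log2 fold changes were -0.10 ± 0.124 at 5 months and -0.07 ± 0.124 at 24 months (SE).

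**Figure D2:**
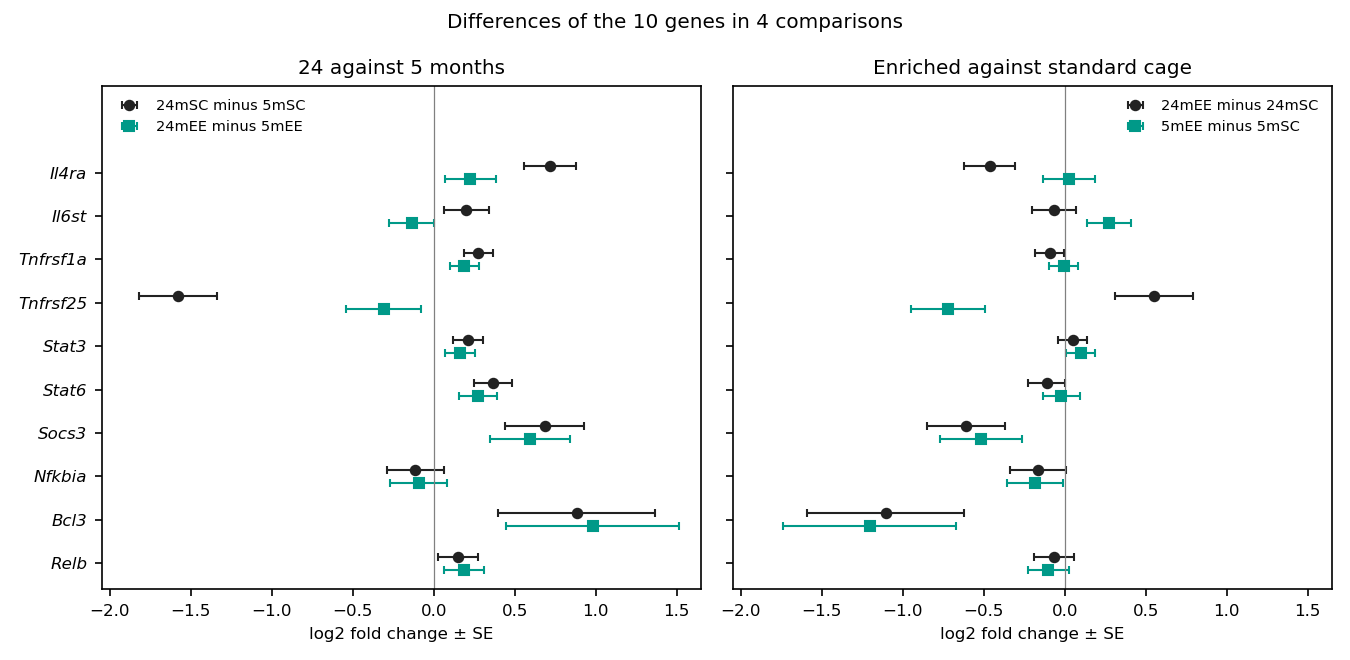
Log2 fold change (x axis; points, with bars of 1 SE) of the 10 genes (y axis) with age (left) and with enrichment (right), from 1 fit of 20 libraries. Tnfrsf25 is at -1.58 and Il4ra at 0.72 for age in standard cages, and on the right the 5-month values of Tnfrsf25 (-0.72) and the 24-month values (0.55) lie on opposite sides of 0.

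Age was compared in each cage with libraries that the other comparison did not use. In standard cages 8 of the 10 genes had a positive log2 fold change and the median was 0.24, against -0.01 over all genes tested. The edgeR test called 2 of them, Il4ra higher and Tnfrsf25 lower, where 0.803% of all genes were called (0.467% higher and 0.335% lower). That share is 134 genes, and it ranged from 30 genes without 24mSC replicate 3 to 1127 without 5mSC replicate 2 when 1 library was left out. The same 2 genes were those without overlap of 24mSC and 5mSC, against 3.24% of all genes (1.68% higher and 1.56% lower). An unadjusted p under 0.05 was found for 6 of the 10 and for 20.5% of all genes. Since the genes were chosen with this comparison in view, nothing is read from these counts. Under enrichment 7 of the 10 had a positive log2 fold change and the median was 0.19, against -0.00206 over all genes. The test called 0 of them by edgeR and by DESeq2, with 3 at an unadjusted p under 0.05 (Tnfrsf1a, Stat6 and Socs3), and called 0.108% of all genes. Unadjusted p values under 0.05 were found for 4.61% of all genes there. The 2 groups overlapped in all 10 genes, and 2.76% of all genes did not overlap. The 24mEE libraries of this comparison were also in view when the genes were chosen, so nothing is read from its counts.

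The sign of the age difference was the same in both cages for 9 of the 10 genes and for 54.5% of all genes tested. The genes were chosen with the standard-cage side of this count in view, so nothing is read from it. Il6st was the exception, and its standard-cage value turned to -0.05 without 5mSC replicates 1 and 3, against -0.14 under enrichment. In standard cages and under enrichment the log2 fold changes were 0.68 and 0.59 for Socs3, 0.88 and 0.98 for Bcl3, 0.72 and 0.23 for Il4ra, and -1.58 and -0.31 for Tnfrsf25. The first value of Socs3 was 0.98 without 5mSC replicates 1 and 3, and that of Bcl3 lay between 0.34 and 1.42 with single libraries left out. The interaction of age and environment, which uses groups that the choice of genes had in view, called 0 of the 10 genes by edgeR and by DESeq2, and 0% of all genes by edgeR, with unadjusted p values under 0.05 for 2 of the 10 and for 8% of all genes. Nothing is read from the count of 2.

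Enrichment was compared at each age, again without shared libraries. At 24 months 8 of the 10 genes had a negative log2 fold change, and the median was -0.10 against -0.00170 over all genes. The test called 0 of them by edgeR and by DESeq2, where edgeR called 0% of all genes, and 4 had an unadjusted p under 0.05, as had 6.21% of all genes. The genes were chosen with this comparison in view too, and nothing is read from that count. The groups overlapped in all 10 genes, and 3.43% of all genes did not overlap. At 5 months 7 of the 10 had a negative log2 fold change, and the median was -0.06 against -0.02 over all genes. The test called 0 of them by edgeR and by DESeq2 and 0% of all genes by edgeR, and Tnfrsf25 and Bcl3 had an unadjusted p under 0.05, as had 16.5% of all genes. The groups again overlapped in all 10, and 1.62% of all genes did not overlap. The 5mSC libraries were also in view when the genes were chosen, and nothing is read from the counts at 5 months. The sign was the same at both ages for 7 of the 10 genes and for 54.9% of all genes, with Il4ra, Il6st and Tnfrsf25 as exceptions. At 5 months Il4ra (0.03 ± 0.161), Tnfrsf1a (-0.01 ± 0.0896) and Stat6 (-0.02 ± 0.117) differed by less than their SE, so their signs were not settled. The 24-month side was in view when the genes were chosen, and nothing is read from the count of 7. Adjusted p values at 5 months ranged from 0.223 for Tnfrsf25 to 0.979 for Tnfrsf1a.

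Markers of other tissue and cells moved with some of these groups. The summed level of 6 striatum markers was 77.4 to 87.0 CPM in 24mSC, above all libraries of 24mEE (61.2 to 76.9 CPM), 5mSC (51.3 to 77.0 CPM) and 5mEE (56.5 to 71.1 CPM), and Il4ra too was highest in 24mSC. The 6 neocortex markers summed to 165.5 to 219.1 CPM in 24mSC, 128.8 to 196.3 CPM in 24mEE and 139.0 to 216.3 CPM in 5mSC. The 6 microglia markers summed to 356 to 414 CPM in 24mSC, 328 to 384 CPM in 24mEE, 322 to 372 CPM in 5mEE and 199 to 361 CPM in 5mSC, with the lowest value in 5mSC replicate 3. Of the 6 meningeal fibroblast markers, 0 had a positive log2 fold change in 24mSC against 5mSC (median -0.61) and 0 in 5mEE against 5mSC (median -0.58). In those comparisons Tnfrsf25 was at -1.58 and -0.72. In 24mEE against 5mEE 1 of these markers was positive (median -0.29), with Tnfrsf25 at -0.31. In 24mEE against 24mSC 1 was positive too (median -0.12), whereas Tnfrsf25 was higher, at 0.55. Of the 5 choroid plexus and ependyma markers tested, 1 was positive in 24mSC against 5mSC (median -0.85) and 0 in 24mEE against 5mEE (median -0.86). Their list summed to 32.7 to 74.4 CPM in 24mSC. In 5mSC it summed to 371.7 CPM in replicate 3 and to 31.3 to 57.6 CPM in the other libraries. Blood and leukocyte markers reached 177 CPM in 24mSC replicate 1, above the 30.1 to 39.0 CPM of the remaining 24mSC libraries. In 24mSC replicate 4, which had the highest Bcl3, they were at 32 CPM and microglia markers at 371 CPM. All 6 striatum, neocortex and microglia markers were above 1 CPM in every group, and the part of any of these markers in the differences of the 10 genes was not tested.

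Genes with a similar profile were sought over all 20 libraries for the 4 genes that varied most between groups. For Tnfrsf25 the closest was 4921524J17Rik, at a Pearson r of 0.955 of log2 CPM, followed by Zmym1 at 0.863 and Pqlc1 at 0.861. For Il4ra they were Il17ra, a receptor chain of IL-17, at 0.843, Crb2 at 0.829 and Kcnt1 at 0.823. For Socs3 they were Scpep1 at 0.857, Fxyd5 at 0.840 and Rnf207 at 0.834, and for Bcl3 Arhgap22 at 0.761, Nupr1 at 0.741 and Nfkb2, the NF-kB subunit p100, at 0.741. The libraries share groups and the 2 that stand apart, so r values describe this set of libraries only.

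Over the 18 libraries without 5mSC replicates 1 and 3 the nearest gene of Tnfrsf25 was again 4921524J17Rik, at 0.934, with Otub2 at 0.884 and Zmym1 at 0.874. For Socs3, Plekhh3 came first at 0.857, then Tfap4 at 0.844 and Scpep1 at 0.842. For Bcl3 the list became Lyz2, the lysozyme of macrophages, at 0.816, Mvp at 0.767 and Adgre1, a macrophage and microglia marker, at 0.759. For Il4ra it became Plekha6 at 0.889, Pfkp at 0.884 and Srebf2, a regulator of cholesterol synthesis, at 0.862. Among the 10 genes themselves, Il4ra went with Socs3 (r of 0.719 over 20 and 0.839 over 18 libraries) and Stat6 (0.714 and 0.697) and against Tnfrsf25 (-0.738 and -0.801). The largest r of Nfkbia was 0.237, with Tnfrsf25, over 20 libraries and 0.384, with Il6st, over 18. These r values pool the groups, and the genes were chosen with differences between groups in view. Nothing about shared regulation is therefore read from them.

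The pathways around these genes were followed with 126 further genes of 11 lists, chosen by role. Of these, 22 were below the filter on low counts, among them 10 of 16 cytokine ligands: Il13, Il6, Il11, Cntf, Osm, Clcf1, Il1b, Tnf, Lta and Tnfsf15, the ligand of Tnfrsf25. The median count of Il6 over the libraries was 2.5, of Il1b 6 and of Tnf 2. The highest counts were 199 for Osm (21.8 CPM), 36 for Lta, 23 for Il6, 14 for Tnf and 12 for Il1b. Those of Osm, Lta, Il6 and Tnf were in 5mSC replicate 3, the library that stands apart. Il2rg, a partner of Il4ra in the IL-4 receptor, had a median of 6 counts, and the STAT6 targets Arg1, Chil3, Retnla and Ccl11 had 0 to 4.5. Il13ra1, which also pairs with Il4ra, was above the filter. Il4 itself passed the filter, at 3.29 ± 0.759 CPM in 5mSC and 3.74 ± 0.428 CPM in 5mEE (SD, n = 5 each).

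Of the 104 pathway genes tested, edgeR called 0 higher and 0 lower in each of the 4 comparisons and in the interaction. Unadjusted p values under 0.05 were found for 18 in 24mSC against 5mSC (20.5% of all genes), 3 in 24mEE against 24mSC (6.21%), 16 in 5mEE against 5mSC (16.5%), 10 in 24mEE against 5mEE (4.61%) and 8 in the interaction (8%). DESeq2 called 2 in 24mSC against 5mSC, Gfap and Il11ra1, out of 759 over all genes, and 0 in the other comparisons. Their medians were near those of all genes, at -0.03, 0.02, -0.07 and 0.02 (log2 fold changes) in the same order of the 4 comparisons.

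The STAT3 targets included the largest log2 fold change of the pathway genes tested over the 4 comparisons, that of Lcn2. Gfap, the filament protein of astrocytes, was at 355 ± 72.3 CPM in 5mSC, 407 ± 63.1 CPM in 5mEE, 570 ± 116 CPM in 24mSC and 584 ± 115 CPM in 24mEE (SD, n = 5 each). Its log2 fold change with age was 0.68 ± 0.165 (SE, adjusted p = 0.0514, edgeR) in standard cages and 0.52 ± 0.164 (SE, adjusted p = 0.577, edgeR) under enrichment. Lcn2, a secreted protein of reactive astrocytes, was at 0.189 ± 0.109 CPM in 5mEE and 1.44 ± 1.59 CPM in 24mEE, with an SD above the mean in 24mEE. Its difference was 2.93 ± 0.952 on the log2 scale (SE), with an adjusted p of 0.599 (edgeR). Mcl1, a survival factor, and Bcl6, a repressor shared by the STAT3 and STAT6 lists, were at -0.30 ± 0.0956 and -0.35 ± 0.113 (log2 fold changes ± SE) in 24mSC against 5mSC. Without 5mSC replicates 1 and 3 Gfap was at 0.53 ± 0.166 in that comparison (SE, adjusted p = 0.0874, edgeR). Of the 15 STAT3 targets, 8 had a positive log2 fold change in 24mSC against 5mSC (48% of all genes), 11 in 24mEE against 24mSC (49.4%), 4 in 5mEE against 5mSC (46.1%) and 12 in 24mEE against 5mEE (49.3%).

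Among receptors, Il11ra1, a gp130 partner that binds IL-11, had a mean of 13.8 CPM in 5mSC (SD 2.55, n = 5) and of 9.99 CPM in 24mSC (SD 0.778, n = 5). This was a difference of -0.47 ± 0.141 on the log2 scale (SE), with an adjusted p of 0.0881 (edgeR). Of the 8 other JAK and STAT genes tested, Stat5b was at 20.7 ± 1.88 CPM in 24mSC and 17.2 ± 2.39 CPM in 24mEE, with an adjusted p of 0.669 (edgeR). The STAT6 targets that could be tested were 5, and all 5 had a negative log2 fold change with age in both cages. In standard cages this rested partly on 5mSC replicates 1 and 3. Without them Cish turned from -0.08 to 0.00926, Socs1 from -0.04 to 0.43 and Cd36 from -0.28 to 0.27. Mrc1 and Bcl6 stayed negative there, at -0.37 and -0.40. Cish, a SOCS family inhibitor, was at 2.23 ± 0.330 CPM in 24mSC and 1.58 ± 0.516 CPM in 24mEE. These differed by -0.50 ± 0.209 on the log2 scale (SE), with an adjusted p of 0.671 (edgeR).

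Among NF-kB genes, Ier3, an early target that protects from cell death, had its lowest mean in 5mEE. It was at 2.04 ± 0.393 CPM in 5mEE, 3.75 ± 1.23 CPM in 5mSC, 3.51 ± 0.745 CPM in 24mSC and 3.49 ± 1.02 CPM in 24mEE (SD, n = 5 each). Its log2 fold change was -0.85 ± 0.238 (SE, adjusted p = 0.223, edgeR) from 5mSC to 5mEE and 0.77 ± 0.237 (SE, adjusted p = 0.547, edgeR) from 5mEE to 24mEE. Ier3 was at 5.48 CPM in 5mSC replicate 3, against 2.44 to 4.21 CPM in the other 5mSC libraries. Without 5mSC replicates 1 and 3 its difference of 5mEE from 5mSC was -0.62 ± 0.242 (log2 fold change ± SE). Vcam1, an adhesion molecule of vessels, was at 26 ± 1.62 CPM in 24mSC and 21.7 ± 3.04 CPM in 24mEE. It differed from 5mEE to 24mEE by -0.37 ± 0.101 (log2 fold change ± SE, adjusted p = 0.407, edgeR). Nfkbid, an IkB protein of the nucleus, was at 3.80 ± 2.07 CPM in 5mSC and 2.26 ± 0.284 CPM in 5mEE, with an adjusted p of 0.224 (edgeR). Its 5mSC value in replicate 3 was 7.34 CPM against 2.13 to 3.78 CPM in the other 4, and the log2 fold change of 5mEE from 5mSC went from -0.70 to -0.21 ± 0.154 without 5mSC replicates 1 and 3. Ikbkg, the regulatory subunit of the IKK complex, and Pias1, a SUMO ligase, were at 0.25 ± 0.0730 and 0.24 ± 0.0785 in 5mEE relative to 5mSC on the log2 scale (SE), each with an adjusted p of 0.223 (edgeR). They were at 0.13 ± 0.0575 and 0.11 ± 0.0573 without 5mSC replicates 1 and 3.

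**Figure D3:**
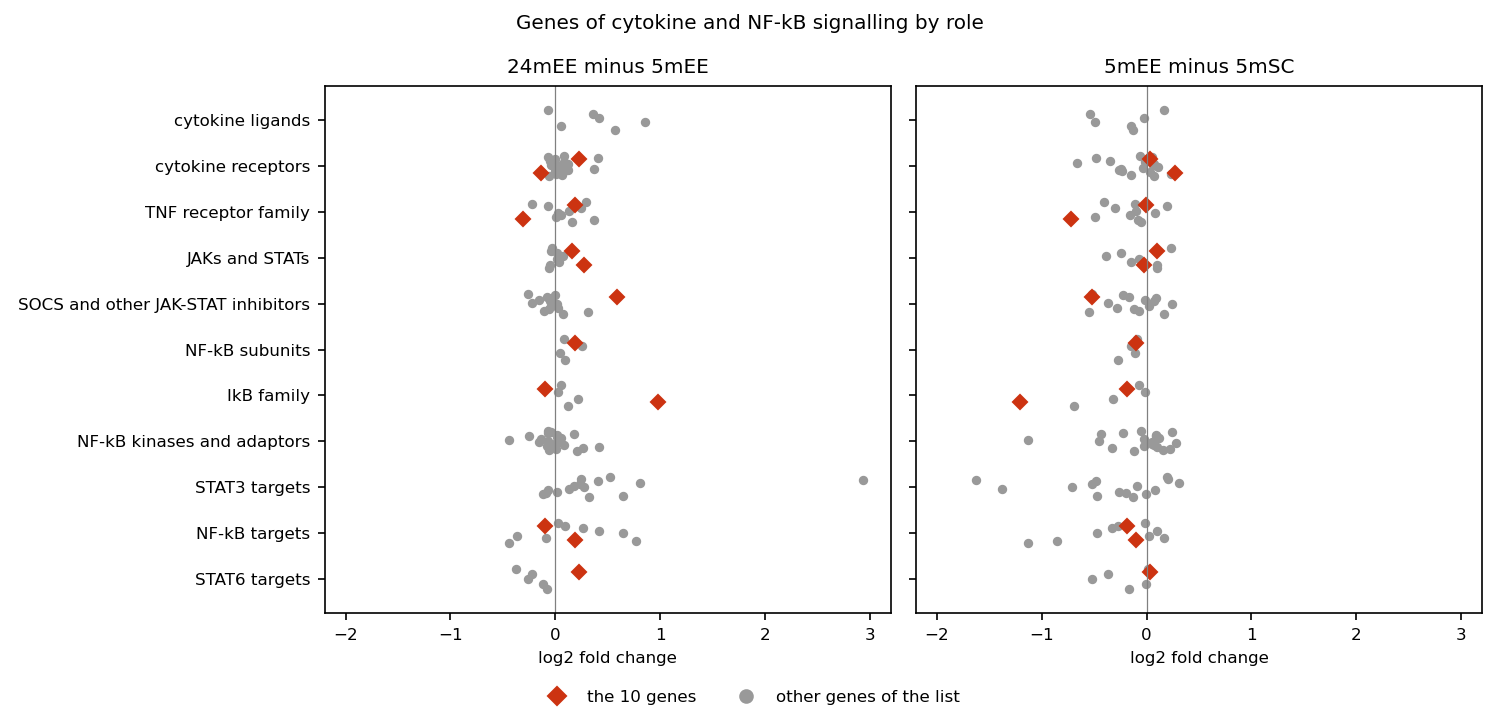
Log2 fold change (x axis) of the genes tested in each list of roles (y axis) in 24mEE against 5mEE (left) and 5mEE against 5mSC (right), with the 10 genes as red diamonds and the other genes as grey points; a gene of more than 1 list is drawn in each. Bcl3 lies outside the other IkB family genes in both panels, at 0.98 and -1.20, and the point near 2.93 among the STAT3 targets is Lcn2.

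Leaving out single libraries showed which values rest on them, as a description of the comparison the genes were chosen on and not as support for it. Tnfrsf25 stayed between -1.71 and -1.38 (log2 fold change, 24mSC against 5mSC) in 10 fits that left out 1 library each, and was called in all 10. Il4ra stayed between 0.65 and 0.77 and was called in 3 of the 10. It was not called without 5mSC replicate 1 or 5, or without any of the 24mSC replicates. Socs3 was called without 5mSC replicate 3, where its log2 fold change was 0.92, and Stat6 without 5mSC replicate 2, where it was 0.42. In a fit of only the 24mSC and 5mSC libraries 0 of the 10 genes were called. No gene of the 10 was called in any such fit of the other 3 comparisons.

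**Figure D4:**
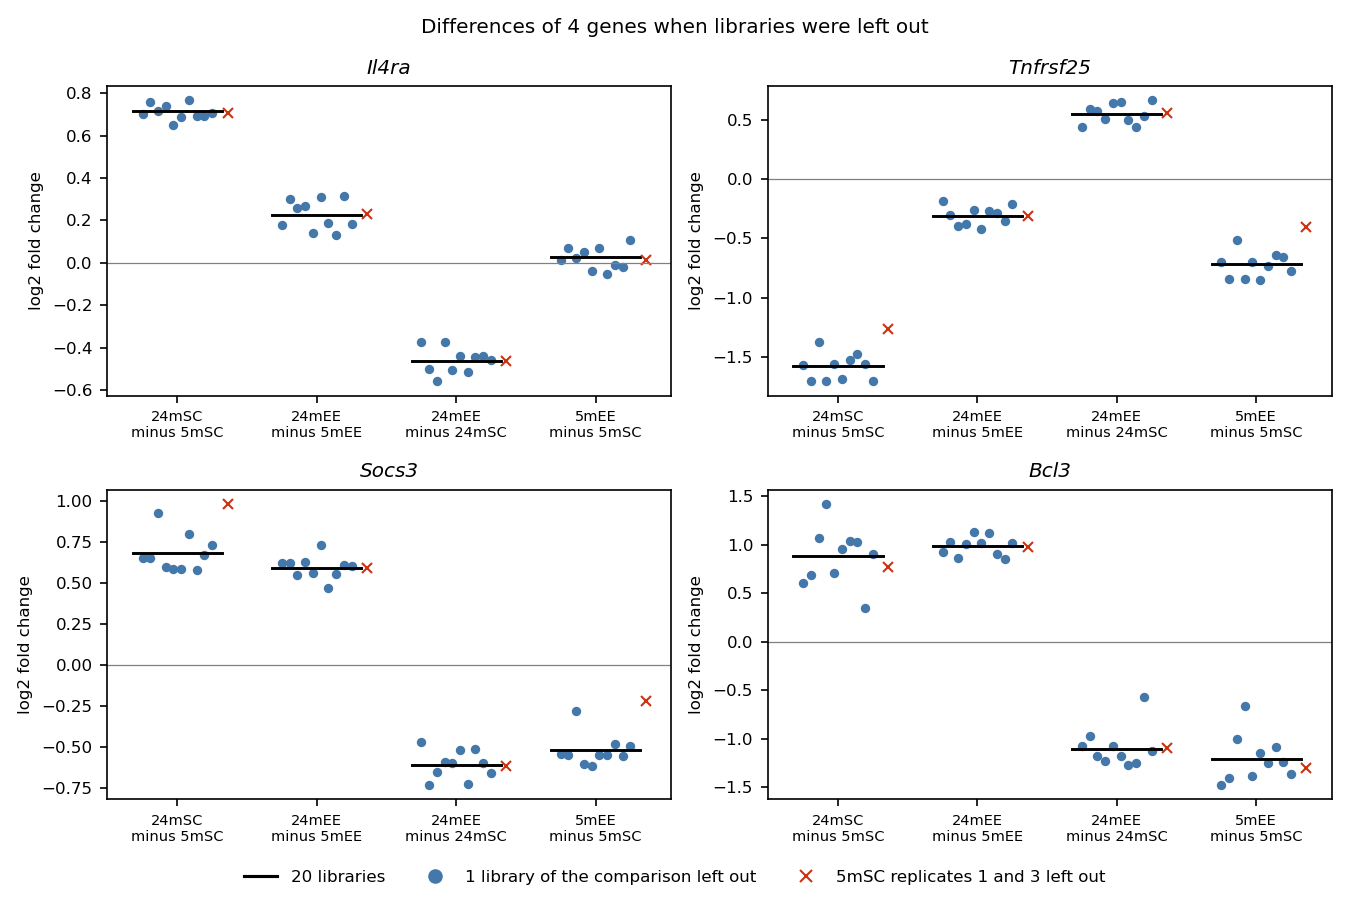
Log2 fold change (y axis) of Il4ra, Tnfrsf25, Socs3 and Bcl3 in the 4 comparisons (x axis) with all 20 libraries (line), with 1 library of the compared groups left out (points), and without 5mSC replicates 1 and 3 (cross). Bcl3 moves most, from 0.88 to 0.34 for 24mSC against 5mSC and from -1.11 to -0.57 for 24mEE against 24mSC without 24mSC replicate 4.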

How the data were processed

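RNA of the hippocampus was sequenced in 20 libraries from a TruSeq RNA v2 kit, which does not mark the strand, over 50 bases from a single end. The authors deposited raw counts of reads per Ensembl gene, and the labels name GRCm38, featureCounts 1.4.6-p4, STAR 2.4.1d and bcl2fastq 1.8.2 as build and tools. The annotation release and strand setting are not given in the sources used here. The paper's own results came from another alignment and counting, and more animals. The deposited RPKM values were not used, because their divisors do not follow the library totals.

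Counts were analysed with edgeR 4.0.16 in R 4.3.3. Genes with low counts were removed with filterByExpr (least count 10, least total 15), libraries were scaled by TMM and a quasi-likelihood model of the 4 groups was fitted to all 20 libraries. P values were adjusted by Benjamini-Hochberg over the 16692 genes and a gene was called at an adjusted p under 0.05. The SE is the size of the log2 fold change divided by the root of F. Totals of 11 to 34.1 M counts limit low genes, and floors of 3 counts cover counting error only. Replicates of a group agreed at Pearson r of 0.988 to 0.994 of log2 CPM outside 5mSC and differed beyond sampling noise (chi-square per degree of freedom of at least 4.77), so none was counted as a duplicate.

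The 10 genes, the pathway and marker lists and the tests were chosen with earlier results of these data known. The study had also picked Il4ra, Socs3 and Bcl3 partly on these samples. The text names all 10 genes. Of the other pathway genes it names, in each comparison, up to 8 that pass, or the 4 with the smallest p where fewer than 2 pass, and the 3 genes most alike in profile to Il4ra, Socs3, Bcl3 and Tnfrsf25 (mean log2 CPM of at least 1). Ligands, targets and receptor partners below the filter, and Il4, Il13ra1, Socs1, Mrc1 and Cd36, were named after their values were seen. Alternatives were DESeq2 1.42.0 size factors and its Wald test, no filter, a fit of the 2 groups compared, a choroid plexus covariate, and fits without 5mSC replicates 1 and 3 or without each library. Values of pathway genes without 5mSC replicates 1 and 3, and the interaction, were added after the data were seen. The code was tested on simulated data. Promoter windows are from RefSeq (GRCm38.p6) and gene models from GENCODE (GRCm38).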

Additional observations from a re-analysis of the deposited data

Results flagged for a closer look

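In 4 of 40 sets of 5 libraries (10 genes in 4 groups) the highest library stood apart by Dixon's criterion (critical value 0.71), where chance gives about 1 in 20. Socs3 was at 3.18 CPM in 5mSC replicate 3 against 1.31 to 1.62 CPM in the other 5mSC libraries. Bcl3 was at 2.75 CPM in 24mSC replicate 4 against 0.620 to 1.1 CPM in the others. Nfkbia was at 23.2 CPM in 24mEE replicate 1 against 12.8 to 15.5 CPM, and Relb at 8.90 CPM in 5mEE replicate 3 against 6.86 to 7.30 CPM.

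The Tnfrsf25 means of the enriched groups lay on opposite sides of their standard-cage groups at the 2 ages, while neither difference was called. The mean of 24mEE was 4.41 CPM above that of 24mSC, with all 5 libraries above the 24mSC mean, whereas the 5mEE libraries differed from the 5mSC mean by -16.2 to -5.98 CPM. At 5 months the log2 fold change was -0.72, and -0.40 without 5mSC replicates 1 and 3. The interaction of age and environment, which uses groups that the choice of genes had in view, did not pass (adjusted p = 0.613, edgeR).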

How the results depend on the processing

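The 10 genes and 4 comparisons gave 638 recomputed log2 fold changes. Of these, 15 changed sign, 14 of them in 5mEE against 5mSC, and none was a called value. Tnfrsf1a went from -0.01 to 0.0165 with no filter and to 0.0154 with the choroid plexus covariate, Stat6 from -0.02 to 0.00654 with no filter, and Stat3 from 0.10 to -0.00813 without 5mSC replicates 1 and 3. With single libraries left out, Il4ra ranged from -0.0522 to 0.109, Tnfrsf1a from -0.0587 to 0.0298 and Stat6 from -0.121 to 0.0331. The other was Il6st in 24mSC against 5mSC, which turned from 0.20 to -0.05 without 5mSC replicates 1 and 3. Of the 10 genes, 2 were called in 24mSC against 5mSC, 1 with no filter (Tnfrsf25), 0 in the fit of the 2 groups, 3 without 5mSC replicates 1 and 3 (Il4ra, Tnfrsf25 and Socs3), and 1 to 3 when a library was left out. Of the pathway genes 0 were called there, 2 with DESeq2 (Gfap and Il11ra1), 2 with the choroid plexus covariate (Gfap and Mcl1), 1 without 5mSC replicates 1 and 3 (Birc3), and 0 to 4 when a library was left out. The cause of these changes was not tested. In the other 3 comparisons 0 of the 10 genes and 0 pathway genes were called under each alternative run. Bcl3 was below the filter, and so not tested, in the fit of the 2 groups for 5mEE against 5mSC and for 24mEE against 5mEE. Over all genes, 134 were called in 24mSC against 5mSC, 759 by DESeq2, 59 with no filter, 3 in the fit of the 2 groups, 363 without 5mSC replicates 1 and 3, 230 with the covariate, and 30 (without 24mSC replicate 3) to 1127 (without 5mSC replicate 2) with single libraries left out. In 24mEE against 24mSC 0 were called, 31 by DESeq2, 187 in the fit of the 2 groups and 10 without 5mSC replicates 1 and 3. In 5mEE against 5mSC 0 were called, 30 by DESeq2 and 2 with the covariate. In 24mEE against 5mEE 18 were called, 39 by DESeq2, 9 with no filter, 52 in the fit of the 2 groups, 97 without 5mSC replicates 1 and 3, 28 with the covariate and 3 to 12 with single libraries left out. No paired analysis was possible because the replicate numbers only follow the order of deposition. At 4 to 51 counts per library, Bcl3 is limited most by depth.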
